A study of Mus musculus with 24 samples.

Results

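Trib3 and Chac1 are a pair of genes on mouse chromosome 2 that were followed here through the spinal cords of mice carrying combinations of Gcn2 and Gars alleles. They were chosen by name, as 2 of the 38924 genes in the deposited tables and 2 of the 17409 genes that passed the filter on low counts, because both are known targets of the stress factor ATF4 and both lie on the same chromosome as Eif2ak4, the gene that encodes GCN2. Trib3 (ENSMUSG00000032715) is a protein-coding gene on the minus strand, chr2:152337422-152344032 on GRCm38, 33.9 Mb from Eif2ak4. Chac1 (ENSMUSG00000027313) is a protein-coding gene on the plus strand, chr2:119351229-119354381, 0.876 Mb from Eif2ak4 (ENSMUSG00000005102, chr2:118388618-118475234, plus strand). The levels of the members in the genotype groups were known when they were chosen, so those levels and their differences are given as a description, without tests.

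GCN2 is activated by uncharged tRNAs and by stalled ribosomes. It phosphorylates the initiation factor eIF2, which lowers bulk translation and raises translation of the ATF4 mRNA. ATF4 then raises transcription of genes for amino acid supply, tRNA charging and feedback control, a program called the integrated stress response. Trib3 encodes a Tribbles pseudokinase that binds AKT and ATF4 and acts as a brake on the response. Chac1 encodes a gamma-glutamyl cyclotransferase that breaks down glutathione. Gars encodes glycyl-tRNA synthetase, and dominant alleles of it cause peripheral neuropathy in mice and people.

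Poly(A) RNA of whole spinal cord was sequenced in 24 libraries, 13 from male and 11 from female mice aged 8 weeks, on the strain background the labels write as B6J;CASTxB6.129. With 2 wild-type copies of Gars there were 4 Gcn2+/+, 4 Gcn2+/- and 3 Gcn2-/- libraries, and with 1 wild-type and 1 P278KY copy of Gars (called mutant Gars here) there were 4 Gcn2+/+, 4 Gcn2+/- and 5 Gcn2-/- libraries. No treatment is given. The comparisons ask what loss of Gcn2 does to the response to mutant Gars. How the Gcn2 allele was made and how much chromosome 2 sequence of its source strain came with it is not stated in the labels. A gene linked to Eif2ak4 can therefore differ between Gcn2 genotypes through sequence inherited with the allele, and in one Gars background alone this and loss of the kinase cannot be told apart. Such sequence close to Eif2ak4 would mostly come with the allele whichever Gars allele is carried, so the Gcn2 effect with wild-type Gars was set against that with mutant Gars. How much linked sequence each library carries was not tested. Farther along the chromosome it can differ between libraries, so for Trib3, 33.9 Mb away, the comparison does not hold it constant. In whole tissue, fewer cells of a type and less RNA per cell cannot be told apart either.

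Library totals ran from 19.7 to 32.4 M expected counts, the authors' estimates of read counts per gene. Eif2ak4 followed the Gcn2 labels, with no overlap among its ranges of 28.9 to 34.4 CPM (counts scaled to a per-million total) in Gcn2+/+, 20.4 to 23.6 CPM in Gcn2+/- and 11.4 to 15.0 CPM in Gcn2-/- libraries over both Gars genotypes, so some transcript remained without the intact gene. All 18 spinal cord markers were detected in every library. In 4 libraries the summed level of 16 Schwann cell and nerve root markers was 1580 to 2400 CPM, while in the other 20 it was at most 1360 CPM. These 4 high-Schwann libraries were 2 of the 4 Gcn2+/+ libraries with mutant Gars and 2 of the 4 Gcn2+/- libraries with wild-type Gars. The genotype differences of Trib3 and Chac1 that rest on them are given below with and without them.

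The upstream sequences of both genes are shown because ATF4 acts through short composite sites that it binds together with C/EBP proteins. RefSeq's promoter table on GRCm38.p6 matched both symbols. The 250 bases before each RefSeq start are given 5′ to 3′ on the gene's own strand, and capitals mark matches on either strand to the motif letters TGATGNAA and TGACGNAA, related forms of the ATF4 composite site, or to TGACGTCA, the cyclic AMP response element.
Chac1 upstream, chr2:119350992-119351241, plus strand: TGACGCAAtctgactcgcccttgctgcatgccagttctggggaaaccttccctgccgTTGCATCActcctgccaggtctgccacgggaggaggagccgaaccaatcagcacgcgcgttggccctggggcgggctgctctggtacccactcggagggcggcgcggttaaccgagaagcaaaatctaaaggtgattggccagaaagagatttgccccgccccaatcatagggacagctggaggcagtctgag
Trib3 upstream, chr2:152344061-152344310, minus strand: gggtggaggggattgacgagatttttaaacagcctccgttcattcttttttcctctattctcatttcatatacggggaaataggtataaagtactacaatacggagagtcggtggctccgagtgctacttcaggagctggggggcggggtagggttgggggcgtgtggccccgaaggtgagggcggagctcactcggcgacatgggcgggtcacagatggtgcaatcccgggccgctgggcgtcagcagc
Trib3 site just after the RefSeq start with 10 bases on each side, chr2:152344029-152344056, minus strand: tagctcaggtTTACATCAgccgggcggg
The Chac1 stretch held TGACGCAA, a match to TGACGNAA that opens 250 bases before the start, and TTGCATCA, the reverse complement of a TGATGNAA match, which opens 193 bases before it. The Trib3 stretch held none of the motifs. A reverse-strand TGATGNAA match, TTACATCA, lay at base 15 after the RefSeq start, which is outside the Trib3 gene model of GENCODE M21, where the gene starts further downstream. The windows searched, for both genes and for all others, ran from 250 bases before to 50 after a start, and 3.97% of 32851 promoters held TGATGNAA, 1.59% held TGACGNAA and 1.79% held TGACGTCA. By gene, 4.51% of 27025 genes had at least 1 window with TGATGNAA, and so had 14 of the 45 genes of the stress response list described below that were in the table. A match is a run of letters and not a binding site, and no binding was measured.

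Trib3 was scarce in this tissue. It had 6 to 49 expected counts and 0.220 to 1.86 CPM in a library, while Chac1 had 87 to 295 counts and 4.34 to 9.98 CPM. Per length, in TPM (the per-million transcript share of a library), Chac1 ran from 5.50 to 12.9 and Trib3 from 0.220 to 2.34 over the 24 libraries. The ratio of Chac1 to Trib3 in TPM was 4.38 to 19.2 in the 8 Gcn2+/+ libraries, 6.56 to 20.6 in the 8 Gcn2+/- libraries and 7.97 to 34.8 in the 8 Gcn2-/- libraries. Its medians were 7.47, 8.50 and 20.6 in that order, so relative to Chac1 the Gcn2-/- cords mostly held the least Trib3, with overlapping ranges. Trib3 counts this low carry a large counting error: for the Gcn2-/- groups counting alone gives a coefficient of variation of 30.6% with wild-type and 31.9% with mutant Gars, and the values observed were 52.8% and 32.9%.

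In Gcn2+/+ mice with wild-type Gars, the 4 libraries had Trib3 at 1.08, 0.886, 0.981 and 0.802 CPM (0.937 ± 0.119, SD, n = 4). In Gcn2-/- mice with wild-type Gars, Trib3 was at 0.698, 0.261 and 0.351 CPM (0.437 ± 0.231, n = 3). All 3 libraries without Gcn2 lay below all 4 with it, as 1.94% of the genes tested did in this comparison. The log2 difference was -1.13 ± 0.43 (SE), so the Gcn2-/- level was 45.7% of the Gcn2+/+ level. It was -1.75 ± 0.51 without the Gcn2-/- library at 0.698 CPM, which sits nearest to the Gcn2+/+ range.

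With mutant Gars, Trib3 stood at 0.639, 1.19, 1.35 and 1.86 CPM in the 4 Gcn2+/+ libraries (1.26 ± 0.503), the highest mean of the 6 genotypes. The 5 Gcn2-/- libraries had 0.372, 0.531, 0.220, 0.301 and 0.327 CPM (0.350 ± 0.115), the lowest mean. Again all libraries without Gcn2 lay below all with it, as did 2.09% of genes tested. The log2 difference was -1.82 ± 0.38, a level of 28.2%. The 2 high-Schwann libraries were those at 1.19 and 1.86 CPM, and without both of them the log2 difference was -1.5 ± 0.43.

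The Gcn2 effect on Trib3 with mutant Gars minus that with wild-type Gars was -0.70 ± 0.59 on the log2 scale. It became 0.02 ± 0.58 without the wild-type Gars, Gcn2-/- library at 0.698 CPM, which holds 14 counts of Trib3, and -0.39 ± 0.62 without both Gcn2+/+ high-Schwann libraries. Over the libraries left out 1 at a time it ran from -1.10 to 0.02, the first without the mutant Gars, Gcn2+/+ library at 0.639 CPM. The lower Trib3 of Gcn2-/- libraries was thus measured in both Gars backgrounds, while the size of the difference between the backgrounds rested on single libraries.

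**Figure D1:**
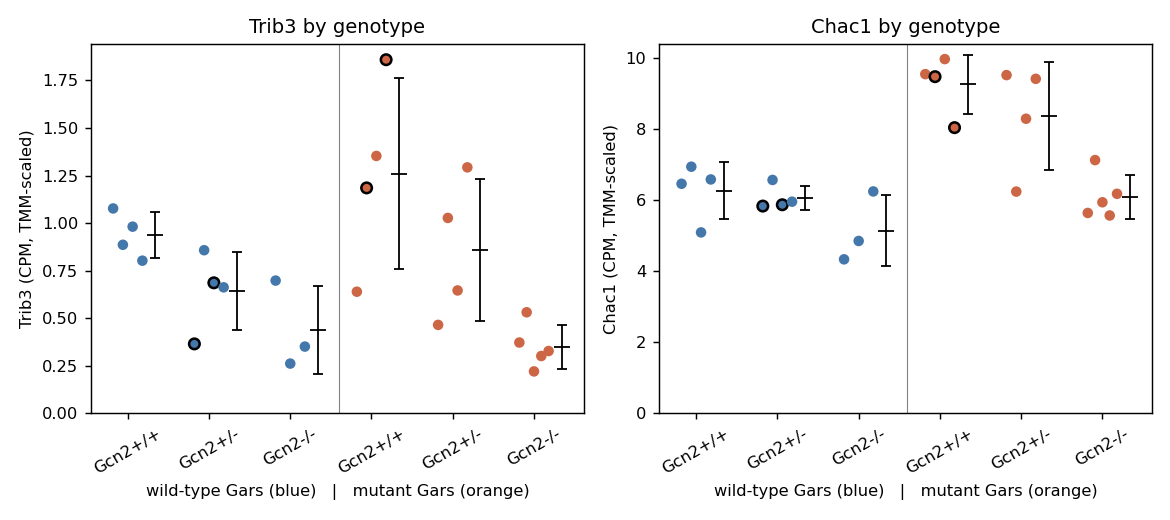
Trib3 (left) and Chac1 (right) in CPM after TMM scaling, 1 point per library, by Gcn2 genotype with wild-type Gars (blue) and mutant Gars (orange). Bars give the mean ± SD of each group, and black outlines mark the 4 libraries with Schwann cell and nerve root sums above 1500 CPM. For Trib3, all Gcn2-/- points lie below the Gcn2+/+ points of the same Gars genotype. For Chac1 this is so with mutant Gars.

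Chac1 gave another picture. In Gcn2+/+ mice with wild-type Gars it was at 6.46, 6.95, 5.09 and 6.59 CPM (6.27 ± 0.811, SD, n = 4). Gcn2-/- libraries with wild-type Gars had 4.34, 4.85 and 6.25 CPM (5.15 ± 0.989, n = 3). The ranges overlapped, and the log2 difference was -0.31 ± 0.16. It ran from -0.45 to -0.19 as single libraries were left out, and was -0.45 without the Gcn2-/- library at 6.25 CPM and -0.19 without the one at 4.34 CPM.

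In the 4 Gcn2+/+ libraries with mutant Gars, Chac1 stood at 9.55, 9.48, 9.98 and 8.04 CPM (9.26 ± 0.841). These lie above every library with wild-type Gars, whose highest was 6.95 CPM. Against the 4 Gcn2+/+ libraries with wild-type Gars alone, 4.06% of genes tested did so. The share against all libraries with wild-type Gars was not computed. In the 5 Gcn2-/- libraries with mutant Gars it was at 5.64, 7.13, 5.94, 5.57 and 6.18 CPM (6.09 ± 0.629). All 5 lay below all 4 with Gcn2, as 2.09% of genes tested did, and the log2 difference was -0.58 ± 0.13, a level of 66.7%. Without both high-Schwann libraries it was -0.67 ± 0.16. The Gcn2 effect with mutant Gars minus that with wild-type Gars was -0.28 ± 0.21, and -0.35 ± 0.23 without both high-Schwann libraries. It ran from -0.40 to -0.14 with single libraries left out, the latter without the wild-type Gars, Gcn2-/- library at 6.25 CPM.

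**Figure D2:**
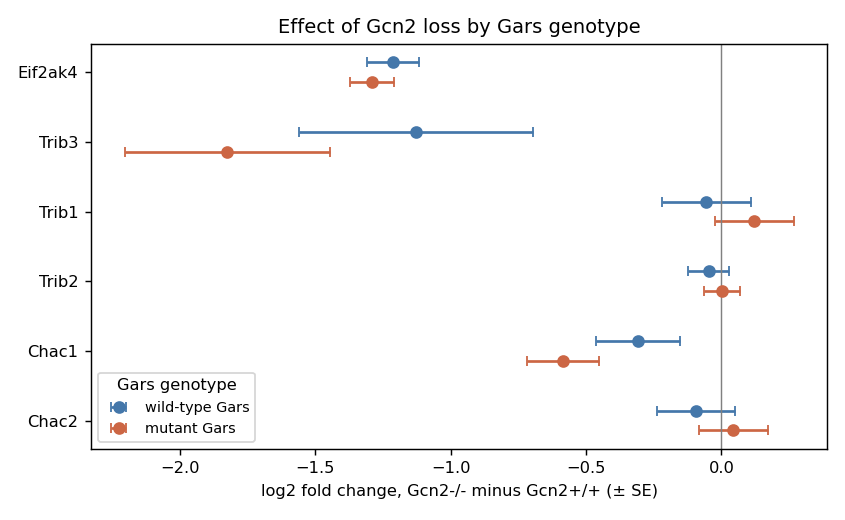
Log2 difference between Gcn2-/- and Gcn2+/+ libraries (points, bars ± SE) with wild-type Gars (blue) and mutant Gars (orange) for Eif2ak4, the Tribbles genes and the Chac genes. Trib3 stands at -1.13 and -1.82 and Chac1 at -0.31 and -0.58, while Trib1, Trib2 and Chac2 lie between -0.09 and 0.12.

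The same groups read across the Gars alleles share their Gcn2+/+ and Gcn2-/- libraries with the comparisons above, so they add no separate evidence. With Gcn2 intact, Chac1 was higher by 0.53 ± 0.14 (log2) in mutant Gars mice and the ranges did not overlap, as for 4.06% of the genes tested in that direction. Without both Gcn2+/+ high-Schwann libraries it was 0.61 ± 0.17. Without Gcn2 the Gars difference in Chac1 was 0.26 ± 0.15, with overlapping ranges. It was 0.15 without the wild-type Gars library at 4.34 CPM and 0.41 without the one at 6.25 CPM. For Trib3 the Gars difference was 0.42 ± 0.39 with Gcn2 intact, 0.10 ± 0.45 without both Gcn2+/+ high-Schwann libraries, 0.15 ± 0.40 with only the 2 groups fitted, 0.19 without the library at 1.86 CPM and 0.78 without the one at 0.639 CPM. Without Gcn2 it was -0.28 ± 0.42, which turned to 0.31 without the library at 0.698 CPM and was -0.54 without the one at 0.261 CPM.

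A single intact Gcn2 copy left both genes between the extremes or near the wild-type level. With wild-type Gars, Trib3 in Gcn2+/- libraries was at 0.365, 0.857, 0.686 and 0.662 CPM (0.642 ± 0.205), overlapping both other Gcn2 genotypes. Its log2 difference from Gcn2+/+ was -0.54 ± 0.38. With the first number in the sample title as a replicate block it was -1.07 ± 0.52, and without the 4 high-Schwann libraries, 2 of which are in this group, -0.28 ± 0.46. With mutant Gars, Trib3 in Gcn2+/- libraries was at 0.465, 1.03, 0.646 and 1.29 CPM (0.858 ± 0.373), and the log2 difference from Gcn2+/+ was -0.54 ± 0.37. It was -0.21 ± 0.44 without both high-Schwann Gcn2+/+ libraries, -0.30 without the one at 1.86 CPM and -0.87 without the Gcn2+/- library at 1.29 CPM.

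Chac1 in Gcn2+/- libraries with wild-type Gars was at 5.84, 6.57, 5.87 and 5.96 CPM (6.06 ± 0.345), inside the range of the Gcn2+/+ libraries, with a log2 difference of -0.05 ± 0.14. Its sign was not stable: it ran from -0.14 without the Gcn2+/+ library at 5.09 CPM to 0.005 without the one at 6.95 CPM, was 0.04 ± 0.19 under the title number block, and was -0.015 ± 0.18 without the 4 high-Schwann libraries. With mutant Gars it was at 9.53, 6.24, 8.30 and 9.42 CPM (8.37 ± 1.52), so 3 of the 4 Gcn2+/- libraries were above every library with wild-type Gars and the fourth was among them. Its log2 difference from Gcn2+/+ was -0.13 ± 0.14. It ran from -0.21 without the Gcn2+/- library at 9.53 CPM to -0.03 without the one at 6.24 CPM, and was -0.25 ± 0.18 under the title number block and -0.22 ± 0.17 without both high-Schwann Gcn2+/+ libraries. The Gars difference at 1 Gcn2 copy was 0.45 ± 0.14 for Chac1 and 0.42 ± 0.39 for Trib3, with overlapping ranges in both genes. Without the 4 high-Schwann libraries these became 0.42 ± 0.18 and 0.19 ± 0.46. The Trib3 value was 0.16 without the Gcn2+/- library with mutant Gars at 1.29 CPM, 0.67 without the one at 0.465 CPM and 0.24 without the wild-type Gars library at 0.365 CPM.

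Ordered by group mean, Trib3 fell from Gcn2+/+ with mutant Gars (1.26 CPM) through Gcn2+/+ with wild-type Gars (0.937), Gcn2+/- with mutant Gars (0.858), Gcn2+/- with wild-type Gars (0.642) and Gcn2-/- with wild-type Gars (0.437) to Gcn2-/- with mutant Gars (0.350). In this order the Gcn2 copy number sorts the 6 means. Chac1 ran from Gcn2+/+ (9.26) and Gcn2+/- (8.37) with mutant Gars through Gcn2+/+ with wild-type Gars (6.27), Gcn2-/- with mutant Gars (6.09) and Gcn2+/- with wild-type Gars (6.06) to Gcn2-/- with wild-type Gars (5.15). There the first 2 places went to mutant Gars with Gcn2 present. Neighbours in both orders had overlapping ranges in every case.

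**Figure D3:**
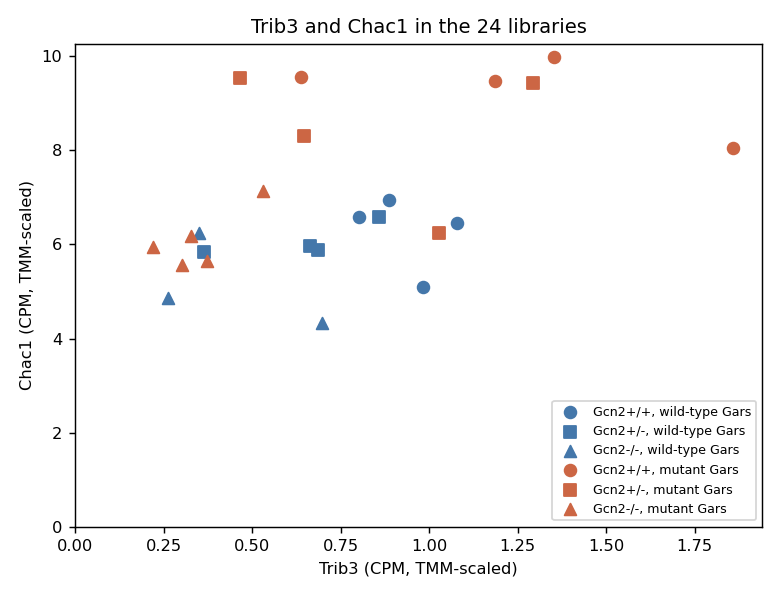
Trib3 (x axis) against Chac1 (y axis), both in TMM-scaled CPM, 1 point per library. Colour gives the Gars genotype and shape the Gcn2 genotype. In mutant Gars libraries with 2 Gcn2 copies Chac1 (8.04 to 9.98 CPM) lies above all libraries with wild-type Gars. The share of all genes with that split was not computed. The Gcn2-/- libraries sit at the left, at 0.698 CPM of Trib3 or below. Some Gcn2+/- libraries, at 0.365 to 0.686 CPM, and the mutant Gars, Gcn2+/+ library at 0.639 CPM lie there too.

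Inside the genotype groups no relation between the members was detected. With genotype means removed, log2 Trib3 and Chac1 had r = -0.171 (permutation p = 0.526) and a Spearman coefficient of -0.102 (permutation p = 0.697) over the 24 libraries, two-sided, shuffled within groups. Without the 2 libraries farthest from the median of Trib3, r was -0.033 (permutation p = 0.912). This was the only relation of its kind computed, and the counting error of Trib3 limits what it could show. Sex, which was no part of the choice of genes, gave a male minus female log2 difference of -0.01 ± 0.27 for Trib3 and -0.06 ± 0.09 for Chac1 (edgeR quasi-likelihood test, adjusted p = 1 for each). Of all genes, 0.0804% were called for sex.

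Sample titles open with a number that up to 6 libraries share and whose meaning is not stated. Of the 8 numbers, 4 held both Gcn2+/+ and Gcn2-/- libraries, over both Gars genotypes. In most of these 4 the compared libraries differed in Gars genotype as well, so Gcn2 and Gars differences cannot be told apart there. Within all 4, every Gcn2-/- library had less Trib3 than every Gcn2+/+ library, as for 0.908% of genes tested. For Chac1 this held in 3 of the 4, and 8.01% of genes tested had it in at least 3. These values come from the libraries already compared above and add no separate evidence. In the fourth, the only Gcn2+/+ library had wild-type Gars and 5.09 CPM, and the Gcn2-/- libraries had 4.34 to 6.18 CPM. Title number 24905, among those 3, had Chac1 at 9.55 and 9.98 CPM in Gcn2+/+ libraries with mutant Gars. Its Gcn2-/- library had wild-type Gars and 4.85 CPM.

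Markers of other cell types moved with part of these values. The Schwann cell and nerve root list (16 of 16 genes measured, none at 0) summed to 970 to 2400 CPM in Gcn2+/+ libraries with mutant Gars and to 987 to 1280 CPM in Gcn2-/- libraries with mutant Gars. With wild-type Gars the sums were 890 to 1360 CPM in Gcn2+/+, 973 to 2270 in Gcn2+/- and 993 to 1110 CPM in Gcn2-/- libraries, and 893 to 1140 CPM in Gcn2+/- libraries with mutant Gars. Several of its genes, such as Sox10 and Mal, are also expressed by oligodendrocytes. Trib3 in the 4 high-Schwann libraries was at 1.19 and 1.86 CPM (Gcn2+/+, mutant Gars) and at 0.365 and 0.686 CPM (Gcn2+/-, wild-type Gars), so the library highest in Trib3 in its group was among the first pair and the lowest of its group among the second. Meninges and fibroblast markers (13 genes, of which Dpep1 was at 0 in 4 libraries) were highest in the same 4 libraries, at 600 and 2200 CPM in Gcn2+/+ with mutant Gars and 580 and 1080 CPM in Gcn2+/- with wild-type Gars. They were at 162 and 169 CPM in the other 2 Gcn2+/+ libraries with mutant Gars, at 320 to 403 CPM in Gcn2-/- with mutant Gars and at 285 to 576 CPM in the rest. Skeletal muscle markers (7 genes, of which 4 were at 0 in at least 1 library) reached 75.1 CPM in a single Gcn2+/+ library with mutant Gars. It was the one at 1.19 CPM of Trib3. The rest of that group was at 1.63 to 2.0 CPM, and the other groups were at most at 5.06 CPM. Dorsal root ganglion markers (9 genes, with Mrgprd at 0 in 23 libraries) summed to 37.2 to 46.8 CPM in Gcn2+/+ and 37.6 to 40.7 CPM in Gcn2+/- libraries with mutant Gars, the groups highest in Chac1, and to 47.0 to 64.0 CPM in the other 4 groups. Prph had the highest median of this list, at 37.5 CPM, followed by Scn9a at 10.3 CPM. The other genes had medians of at most 1.51 CPM, with Scn10a at 0.0349 and Trpv1 at 0.106 CPM. The sums thus mostly give Prph and Scn9a and are no measure of ganglion tissue. P2rx3, an ATP-gated channel gene on the same list, went the other way. Its group means were 4.76 and 2.99 CPM in those mutant Gars groups and 1.29 to 1.52 CPM in the other 4 groups. Bone marrow and neutrophil markers (9 genes, 7 of them at 0 in at least 1 library) summed to 2.3 to 9.41 CPM in Gcn2-/- and to 0.334 to 2.27 CPM in Gcn2+/+ libraries with wild-type Gars, without overlap, and to 0.188 to 8.87 CPM in the other 4 groups. The part of these cell types in the Chac1 and Trib3 levels was not tested, beyond the values without high-Schwann libraries.

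Of the other 59 genes on a list of integrated stress response and ATF4 targets, 58 were tested and 1 of them lies on chromosome 2. The list was drawn up with earlier results of these data known. Counts and p-values of its members, here and below, are thus a description and no separate evidence. With wild-type Gars, 0 of 58 were called for Gcn2 loss by edgeR's quasi-likelihood test (adjusted p below 0.05, which 0.0287% of all genes reached), 0 at an unadjusted p below 0.05 and 0 by DESeq2. Their median log2 difference was -0.02 against -0.01 for all genes. The smallest p belonged to Slc7a1, a cationic amino acid transporter gene, at -0.17 ± 0.08, and to Map1lc3b, an autophagy gene, at -0.16 ± 0.09.

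With mutant Gars, 8 of the 58 fell with Gcn2 loss and 0 rose, beside 0.258% of all genes called as lower and 0.494% called in either direction, with a list median of -0.10 against 0.00 for all genes. The 4 with the smallest p were Fgf21, a stress hormone gene, Cdsn, a gene for a cell adhesion protein best known from skin, Adm2, a peptide hormone gene, and Stbd1, a glycogen-binding protein gene. Cdsn was at -3.83 ± 0.35 (adjusted p = 1.37e-06) and Stbd1 at -1.23 ± 0.21 (adjusted p = 0.0063). The count of 8 was 4 without both Gcn2+/+ high-Schwann libraries and 4 with the title number as a block. It was also 4 without the Gcn2-/- library at 0.301 CPM of Trib3, and 5 without the Gcn2-/- one at 0.220 CPM or the Gcn2+/+ one at 1.35 CPM. For the difference of both Gcn2 effects, 1 gene of the list was called, Cdsn at -4.04 ± 0.57 (adjusted p = 0.00963), beside 0.0115% of all genes. This call was lost with the title number as a block, in the fit of the 4 genotypes without Gcn2+/- libraries, without the Gcn2+/+ library with wild-type Gars that was lowest in Trib3 (0.802 CPM), and without the Gcn2-/- one at 0.261 CPM, while DESeq2 called 2 genes of the list. For mutant Gars with Gcn2 intact 11 rose and 0 fell, beside 0.213% of all genes called as higher, and the count was 6 without both of those high-Schwann libraries. Among single libraries left out, it was 6 without the wild-type Gars one at 0.886 or 0.981 CPM of Trib3 and 7 without the one at 0.802 CPM or the mutant Gars one at 1.19 CPM. Atf4 itself, though not among the 4 with the smallest p, is named as the factor of the list and rose by 0.44 ± 0.07 (adjusted p = 0.00194). For mutant Gars without Gcn2, 0 of the list were called, beside 0.0115% of all genes. At an unadjusted p below 0.05, 10 were higher and 0 lower, beside 4.35% of all genes in either direction. The list median was 0.105 against 0.003 for all genes, and 0.22 against 0.012 with Gcn2 intact. Without Gcn2, Atf4 was at 0.23 ± 0.07 (adjusted p = 0.878).

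The relatives of both genes were not called for Gcn2 loss. Trib1 and Trib2 encode the other Tribbles pseudokinases, and Chac2 the other gamma-glutamyl cyclotransferase of the Chac family. All 3 lie on other chromosomes than Trib3 and Chac1. With wild-type Gars, Gcn2 loss gave -0.06 ± 0.17 for Trib1, -0.05 ± 0.08 for Trib2 and -0.09 ± 0.15 for Chac2. With mutant Gars it gave 0.12 ± 0.15, 0.00 ± 0.07 and 0.04 ± 0.13. None of the 3 was called in any comparison. Of the 11 Tribbles and glutathione genes tested, 0 were called for Gcn2 loss with wild-type Gars (0.0287% of all genes) and 1 with mutant Gars (0.494% of all genes), Gss, the glutathione synthetase gene, which also lies on chromosome 2. It was higher by 0.33 ± 0.07 with mutant Gars (adjusted p = 0.0323), and stood at 0.33 ± 0.08 with wild-type Gars (adjusted p = 0.392).

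The position of both members on chromosome 2 was then compared with that of all its tested genes, members and Eif2ak4 left out. With wild-type Gars, 28.6% of the 56 genes within 2 Mb of Eif2ak4 had an unadjusted p below 0.05 for Gcn2 loss, 27.9% of 269 genes at 2 to 20 Mb, 19.0% of 506 genes at 20 to 50 Mb, 1.63% of 615 genes further along the chromosome and 2.76% of 15960 genes on other chromosomes, where all genes together gave 3.68%. With mutant Gars the shares were 41.1%, 43.5%, 29.6%, 9.43% and 8.73%, and 10% over all genes. Chac1 lies in the first of these zones and Trib3 in the third. The median log2 difference stayed between -0.03 and 0.04 in each zone, so genes there differed in both directions.

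Close to Trib3, 17 of 63 genes within 2 Mb had an unadjusted p below 0.05 with wild-type Gars and 21 of 63 with mutant Gars. Over all genes these shares were 3.68% and 10%. Called after adjustment were 0 and 1 of the 63, beside 0.0287% and 0.494% of all genes. The 1 called was Csnk2a1, a casein kinase subunit gene, which was higher by 0.58 ± 0.11 with mutant Gars (adjusted p = 0.00974). The count of 1 became 0 without both Gcn2+/+ high-Schwann libraries, and without the mutant Gars, Gcn2+/+ library at 1.35 or 1.86 CPM of Trib3. It was 3 without the one at 1.19 CPM, 2 without the Gcn2-/- one at 0.301 CPM, and 7 by DESeq2. Rbck1, a ubiquitin ligase complex gene that ends 4.77 kb from Trib3, was at 0.42 ± 0.10 with wild-type and 0.37 ± 0.09 with mutant Gars (adjusted p = 0.38 and 0.0843). Nrsn2, 24.7 kb away on the other side, was at 0.39 ± 0.12 and 0.16 ± 0.10. Both neighbours stood opposite in sign to Trib3 without Gcn2.

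Around Chac1, 21 of 71 genes within 2 Mb had an unadjusted p below 0.05 with wild-type Gars and 31 of 71 with mutant Gars, and 2 and 7 were called after adjustment, beside 0.0287% and 0.494% of all genes. The count of 2 was 1 without the Gcn2-/- library at 4.34 or 6.25 CPM of Chac1 and 0 with only the 2 groups fitted. The count of 7 was 3 without the mutant Gars library at 8.04, 5.64 or 6.18 CPM of Chac1, 4 without the one at 5.57 CPM, 3 without the 4 high-Schwann libraries, 1 with only the 2 groups fitted and 15 by DESeq2. Pla2g4e, a phospholipase gene 0.812 Mb from Chac1, fell by 2.61 on the log2 scale with wild-type Gars (adjusted p = 1.67e-06), and Ganc, an alpha-glucosidase gene, by 0.70 (adjusted p = 0.00863). Both also fell with mutant Gars (adjusted p = 1.08e-08 and 0.000993). Ttbk2, a tau tubulin kinase gene 1.38 Mb away, was higher by 0.35 ± 0.06 with Gcn2 loss and mutant Gars (adjusted p = 0.0038). Of the 7 called with mutant Gars, 2 were higher and 5 lower without Gcn2. The nearest genes were Dll4, a Notch ligand gene 15.3 kb away, at 0.30 ± 0.22 and -0.04 ± 0.20, and Ino80, a chromatin remodeller gene 18.7 kb away, at 0.05 ± 0.05 and -0.12 ± 0.04, with wild-type and mutant Gars. Neither was called. For the difference between the Gcn2 effects, 0 neighbours were called within 2 Mb of either member, and 2 near Trib3 and 5 near Chac1 had an unadjusted p below 0.05, as 4.93% of all genes had.

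**Figure D4:**
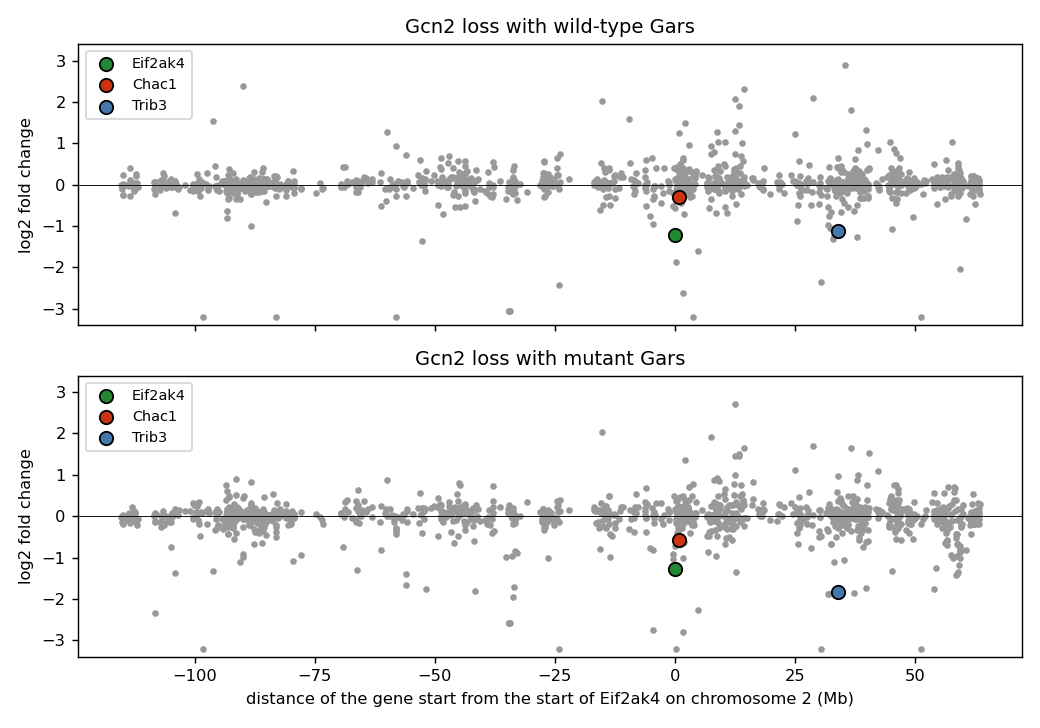
Log2 difference between Gcn2-/- and Gcn2+/+ libraries for the 1311 tested chromosome 2 genes with a mean of at least 0.5 CPM, by distance of the gene start from that of Eif2ak4 in Mb, with wild-type Gars (top) and mutant Gars (bottom). Points beyond 3.2 in size, 5 in each panel, are drawn at that value. Chac1, drawn at 0.963 Mb (its gap to Eif2ak4 is 0.876 Mb), and Trib3, drawn at 33.9 Mb, lie below 0 in both panels among neighbours on both sides of 0.

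Genes whose pattern was most like that of each member were sought among 13525 tested genes with a mean of at least 1 CPM and a named symbol, by Pearson r of log2 CPM over the 24 libraries, which share their genotypes and are given with no test. For Trib3 the 5 closest were Acot8 (0.816), Cst12 (0.816), Dnmt3b (0.815), Itpa-ps1 (0.806) and Pcna-ps2 (0.792). The first 4 of these lie on chromosome 2, at 46.3, 30.3, 35.2 and 24 Mb from Eif2ak4. Cst12, a cystatin gene 3.54 Mb from Trib3, had group means of 8.46, 4.61 and 1.74 CPM from Gcn2+/+ through Gcn2+/- to Gcn2-/- with wild-type Gars, and 9.37, 3.76 and 0.0225 CPM with mutant Gars. Itpa-ps1, a pseudogene that may share reads with its parent, had 6.70, 4.68 and 1.36 CPM and 7.09, 4.19 and 0.0422 CPM in the same order. Dnmt3b, a DNA methyltransferase gene 1.31 Mb from Trib3, had 1.61, 1.5 and 1.18 CPM and 1.97, 1.60 and 0.954 CPM. Of the 50 genes most like Trib3, 36 (72.0%) lay on chromosome 2, which holds 8.09% of the genes compared, 17 of them within 20 Mb of Trib3, and 2 were on the stress response list. Eif2ak4 ranked eighth, at 0.752.

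Chac1 had other company. Its 5 closest genes were P2rx3 (0.855), an ATP-gated channel gene of sensory neurons on chromosome 2, Sesn2 (0.842), a leucine sensor gene, Slc7a1 (0.795), Stbd1 (0.771) and Zc3h14 (0.770), an RNA-binding protein gene. Of these, Sesn2, Slc7a1 and Stbd1 are on the stress response list and on other chromosomes. Sesn2 was at -0.45 ± 0.09 for Gcn2 loss with mutant Gars (adjusted p = 0.0135). Of the 50 genes most like Chac1, 13 were on that list, which makes up 0.392% of the genes compared, and 5 (10%) lay on chromosome 2. This likeness rests on genotype levels known when the members were chosen, and the list was drawn up with earlier results known. The counts over the 24 libraries, for both members, are thus a description and no separate evidence. With genotype means removed, 0 of the 50 closest to Chac1 were on the list and 4 on chromosome 2, and for Trib3 these counts were 1 and 9. The closest were then Ptgis, a prostacyclin synthase gene (0.704), for Trib3, and Adprh, an ADP-ribosylarginine hydrolase gene (0.797), for Chac1.

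Trib3 is annotated with more than 1 transcript and Chac1 with 1. The authors' weighted transcript length was 2026 bases for Trib3 in 14 libraries and shorter in 10, down to 1338 bases in a Gcn2+/- library with mutant Gars. By group, 1 of 4, 3 of 4 and 1 of 3 libraries were below the full length from Gcn2+/+ through Gcn2+/- to Gcn2-/- with wild-type Gars, and 2 of 4, 2 of 4 and 1 of 5 with mutant Gars. Chac1 had 1637 bases in all 24. In TPM, which take this length into account, Trib3 had means of 0.982 ± 0.162 (SD) in Gcn2+/+ and 0.437 ± 0.220 in Gcn2-/- mice with wild-type Gars, and 1.505 ± 0.718 and 0.356 ± 0.116 with mutant Gars. By mean TPM, Gcn2+/- with mutant Gars (1.05 ± 0.529) stood above Gcn2+/+ with wild-type Gars, the reverse of their order in CPM, and the other places were the same.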

How the data were processed

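The deposited tables hold, per gene, an expected count, TPM and a weighted transcript length. Per the submitters' processing notes the authors used RSEM 1.2.12 and Bowtie2 2.2.0; no genome build or annotation is named in the sources used here. An expected count shares out reads that match several genes. The TPM values were used only for levels per length. Per the labels' protocols, poly(A) RNA went through 2 stranded kits, without saying which library had which, and nothing says in words that libraries are separate animals, so p-values measure the spread between libraries.

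Symbols and positions came from GENCODE M21 (GRCm38), by gene identifier (37607 of 38924 matched). Expected counts were rounded and fitted with edgeR 4.0.16 (R 4.3.3): TMM, filterByExpr by genotype, robust quasi-likelihood, terms for the 6 genotypes and sex, all 24 libraries, Benjamini-Hochberg adjustment over 17409 genes at 0.05. SE is the fitted log2 change over the root of F. The method was tested on simulated data with changes set only in genes with a mean of at least 1 CPM, so not at the level of Trib3 (0.744 CPM). Library totals of 19.7 to 32.4 M counts give Trib3 as few as 6 counts. Likeness used log2 CPM with a prior count of 2. Members, lists and tests were chosen with earlier results of these data known. Named genes were the members, Eif2ak4, Trib1, Trib2, Chac2, the 5 most alike to each member, up to 4 called list genes by p (2 if none) and up to 3 called neighbours plus the nearest on each side. Other scalings, DESeq2, no filter, no sex term, fewer groups, a title number block and leaving libraries out were tried. The Schwann cell list leaves out 1 gene that is not reported here.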

Additional observations from a re-analysis of the deposited data

Results flagged for a closer look

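Chac1 in 1 Gcn2+/- library with wild-type Gars, at 6.57 CPM, stood apart from the other 3 of its group, which were at 5.84, 5.87 and 5.96 CPM. Its gap to the nearest was 0.832 of the range, against a limit of 0.829 for 4 samples. It was the only 1 of 10 groups of 4 or 5 libraries to pass such a limit over both genes, and chance alone passes about 1 group in 20.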

How the results depend on the processing

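Of 280 values of the genotype effects on Trib3 and Chac1 under other settings, 4 moved by more than the spread between replicates. Each refit gave several of these values, so they are not separate checks. All were Trib3 values: Gcn2 loss with wild-type Gars (range -1.75 to -0.87 with single libraries left out), the difference of the Gcn2 effects (-1.10 to 0.016), mutant Gars without Gcn2 (-0.54 to 0.31) and 1 Gcn2 copy with wild-type Gars under the title number as a replicate block (-1.07). The alternative without the 4 high-Schwann libraries was chosen after seeing the data. Under the replicate block Gcn2 loss stood at -1.11, -1.89 and a difference of -0.78 for Trib3, and at -0.35, -0.59 and -0.24 for Chac1. The cause of these shifts was not tested.

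Counts of called genes moved more. For list genes lower with Gcn2 loss and mutant Gars (8) they were 2 with only the 2 groups fitted, 4 under the block, 4 without both high-Schwann Gcn2+/+ libraries, 5 without all 4, and 4 to 7 with single libraries left out. For the difference (1) DESeq2 gave 2, and the 4 genotypes alone and the block gave 0, with 0 to 1 over single libraries. For list genes higher with mutant Gars (11) they were 4 with 2 groups, 6 without both, 7 without all 4 and 6 to 12 over single libraries, and for those lower (0) DESeq2 gave 1, with 0 to 1 over single libraries. For neighbours within 2 Mb with wild-type Gars (2 at Chac1, 2 at Eif2ak4), the 4 genotypes gave 1 and 2 groups 0 at both, with 1 to 2 over single libraries. With mutant Gars the Trib3 count (1) was 2 without TMM, 7 by DESeq2, 2 without sex, 0 without both or all 4, and 0 to 3 over single libraries. The Chac1 count (7) was 15 by DESeq2, 1 with 2 groups, 4 without both, 3 without all 4 and 3 to 6 over single libraries. The Eif2ak4 count (5) was 12 by DESeq2, 3 with 4 genotypes, 1 with 2 groups, 2 without both or all 4, and 2 to 5 over single libraries. Small fits test with less residual information.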
